A study of Mus musculus with 48 samples.

Results

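Lungs of diet-induced obese (DIO) mice were compared directly with lungs of regular weight (RW) mice after both had breathed mainstream smoke (MS), the smoke drawn through a cigarette. The comparison used the 8 arrays titled DIO-MS and the 8 titled RW-MS, which are 16 of the 48 arrays of the series, and it describes the state at the end of exposure. It covered 12393 genes, each represented by the probe set with the highest mean over the 48 arrays. All animals were male C57BL/6 mice, bought at 13 weeks of age and 15 weeks old when exposure began. The RW animals ate PMI 5002 chow with about 5 kcal% fat, and the DIO animals ate diet D12492 with 60 kcal% fat from 6 weeks of age, for 9 weeks before exposure. Obesity and the make-up of the diet differed together, so their parts cannot be told apart. Both groups were exposed nose-only for 5 hours a day, on 5 days in a row and, after 2 days of rest, on 3 more, and the lungs were taken the day after the last of these 8 exposures. The remaining diet groups, 8 animals in each, breathed filtered air or sidestream smoke on the same schedule. The labels of all samples mention a 4-day LPS study in the account of the diet, and whether any of these animals received LPS is not given in the sources used here. Each array holds 1 animal. The source names of RW-MS-7 and RW-MS-8 carry the replicate numbers 5 and 6 a further time, and each was counted as an animal of its own.

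The values are deposited log2 signals of Affymetrix arrays hybridised with labelled RNA of whole lung, so fewer cells of a type and less RNA per cell cannot be told apart. The number of arrays, 8 in each group, limits the precision. Signals ran from 2.5 to 15.3 over the series. The lung markers Sftpc (surfactant protein C of alveolar type 2 cells), Scgb1a1 (club cell secretory protein) and Ager (a type 1 cell receptor) had signals of 14.97 to 15.13, 15.11 to 15.22 and 13.16 to 13.73 over both groups. Arrays 1 and 6 of DIO-MS (DIO-MS-1, DIO-MS-6) stood apart, with mean correlations to the other arrays of 0.969 and 0.971 against 0.986 to 0.99 for the other 14. The 3′ minus 5′ signal of Actb, a measure of RNA integrity, was 0.51 ± 0.13 (SD, n = 8) in RW-MS and 0.39 ± 0.12 in DIO-MS, and its part in the results was not tested. Below, differences are DIO minus RW on the log2 scale with their standard error, and a gene is called at an adjusted p below 0.05 in limma.

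Several gene programmes recur in these results. Acute phase proteins such as serum amyloid A, haemopexin and orosomucoid are secreted in response to interleukin 6 and interleukin 1, mainly by the liver but also by lung epithelium, and C/EBP factors are among the activators of their promoters. Heat shock proteins are chaperones under control of HSF1, whereas Cirbp, an RNA-binding protein, is induced by mild cold. Nr1d1 and Dbp are output genes of the circadian clock that cycle strongly in lung. Interferon-induced genes such as Mx1 and Ifit1 encode antiviral proteins and are switched on through interferon-stimulated response elements.

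Under mainstream smoke 150 of 12393 genes (1.21%) differed between the diets, 76 of them higher (0.613%) and 74 lower (0.597%) in obese animals. The differences were small: their median was 0.42 among the genes that were higher and -0.352 among those that were lower, 27 genes passed 1.5-fold, and 3 genes passed 2-fold. Those 3 were Saa1, Orm2 and Hpx, each an acute phase gene. All 8 obese arrays lay above all 8 RW arrays for 25 genes (0.202% of those tested), of which 18 were called, and below them for 12 genes (0.0968%), of which 8 were called. The median difference over all genes was -0.01, and 1575 genes had an unadjusted p below 0.05.

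In the fit to all arrays the count depended on a pair of obese lungs, DIO-MS-1 and DIO-MS-6. Without both arrays 51 genes (0.412%) were called, 36 higher and 15 lower, and 36 of these were also called with the same sign in the full data, which is 24% of the 150 and 70.6% of the 51. All 150 genes kept their sign without the 2 arrays, but 60 of the 76 higher genes and 65 of the 74 lower genes then had a smaller difference. Other arrays mattered as well: the count was 62 without DIO-MS-6, 66 without DIO-MS-1, 79 without RW-MS-8, 89 without RW-MS-1, 90 without RW-MS-4 and 95 without RW-MS-5, and the highest was 219, without RW-MS-7. A fit to the 16 mainstream arrays alone called 47 genes, of which 39 were among the 150. Without DIO-MS-1 and DIO-MS-6 that fit called more genes, 89, of which 45 were among the 150. When DIO-SC-3, DIO-SC-7 and RW-SS-6 of other groups were left out with these 2, 160 genes were called. Array weights, which were low for DIO-MS-1 and DIO-MS-6 (0.237 and 0.255), gave 268. The direction in which the 2 arrays moved the count thus depended on the fit. Leaving aside Pdia3 and Calr, which are described below and were not called without DIO-MS-1 and DIO-MS-6, 52 called genes are named here. Of these 52, 32 were not called without those 2 arrays. In all 4 fits that used all arrays or the mainstream arrays alone, each with and without those 2, 16 were called. The 16 were Saa1, Hpx, Serpina3n, Cp, Hsph1, Hsp90aa1, Hspa8, Stip1, Hspa4l, Nr1d1, Tfrc, Mfap4 and Clmp, which were higher, and Cirbp, F5 and Ccr3, which were lower.

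**Figure D1:**
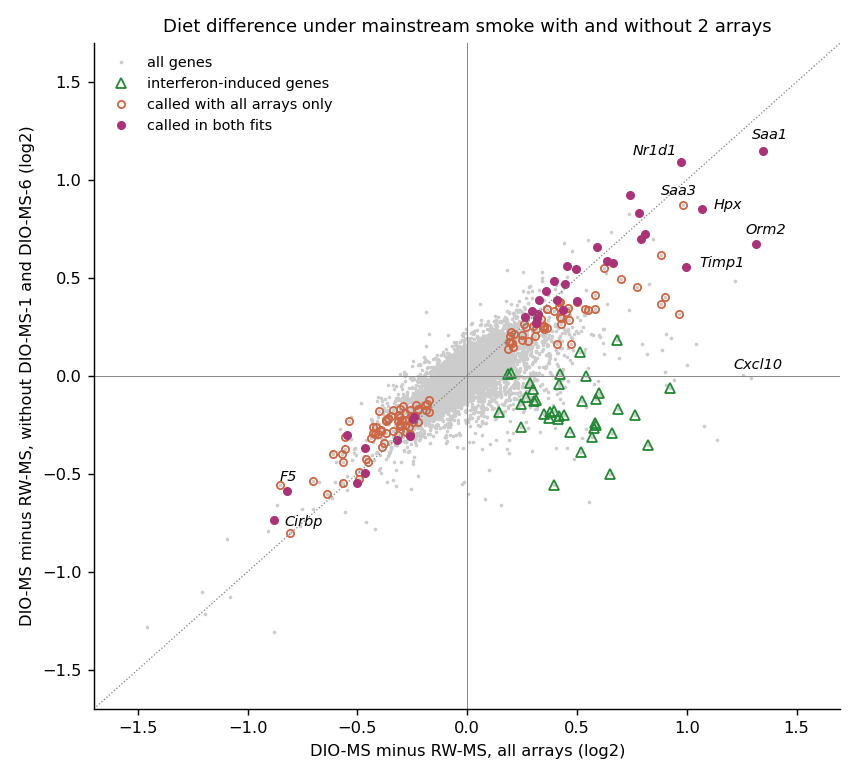
Each point is a gene, with its log2 difference (DIO-MS minus RW-MS) in the fit to all arrays on the horizontal axis and in the fit without DIO-MS-1 and DIO-MS-6 on the vertical axis, and with equal values on the dotted line. Filled points are the 36 genes called in both fits, open circles those called with all arrays only, and the open triangles, 38 interferon-induced genes, lie to the right of 0 with all arrays and mostly below 0 without the 2.

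Acute phase genes held the 3 largest called differences. Of 24 measured members 8 were higher and 0 lower, against 0.613% of all genes higher, and 12 members had an unadjusted p below 0.05 in the higher direction and 1 in the lower. The median difference of the list was 0.28, against -0.01 for all genes. Without DIO-MS-1 and DIO-MS-6, 6 of the 24 were higher (0.29% of all genes) and the median was 0.09. In the fit to the 16 mainstream arrays alone 4 were called, all higher. The promoters of the 3 leading genes are shown because they share a C/EBP type motif. They are RefSeq windows on GRCm38.p6 from 250 bases before to 50 bases after the start of the gene, on the strand of the gene, with TTGCNNAA in capitals: Saa1 at chr7:46742931-46743230 on the minus strand, Hpx at chr7:105600067-105600366 on the minus strand and Orm2 at chr4:63362199-63362498 on the plus strand.
Saa1: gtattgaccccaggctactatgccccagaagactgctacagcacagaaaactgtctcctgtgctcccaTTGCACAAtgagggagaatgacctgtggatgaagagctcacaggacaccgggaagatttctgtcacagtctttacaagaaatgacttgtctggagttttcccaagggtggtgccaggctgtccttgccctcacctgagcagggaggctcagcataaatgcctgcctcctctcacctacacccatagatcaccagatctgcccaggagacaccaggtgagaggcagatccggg
Hpx: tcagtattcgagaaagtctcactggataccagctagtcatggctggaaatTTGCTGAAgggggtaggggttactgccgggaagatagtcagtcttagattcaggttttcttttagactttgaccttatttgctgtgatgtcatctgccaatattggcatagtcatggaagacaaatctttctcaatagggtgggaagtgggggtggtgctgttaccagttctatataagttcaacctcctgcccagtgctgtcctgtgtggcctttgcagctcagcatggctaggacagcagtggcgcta
Orm2: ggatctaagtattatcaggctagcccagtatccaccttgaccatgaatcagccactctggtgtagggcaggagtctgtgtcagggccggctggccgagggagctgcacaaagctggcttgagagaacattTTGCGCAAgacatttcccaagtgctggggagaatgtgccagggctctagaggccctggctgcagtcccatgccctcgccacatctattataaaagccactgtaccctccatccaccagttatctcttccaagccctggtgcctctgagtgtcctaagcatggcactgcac
The match began 182 bases before the start in Saa1, 200 bases before it in Hpx and 120 bases before it in Orm2, and overlapped no other motif that was searched. On either strand TTGCNNAA occurred in 12 of the 23 windows of the 20 acute phase genes matched by symbol (52.2%), against 9.43% of the 12566 windows of the same length of genes tested. A kappaB type motif, GGG and TTCC with any 3 bases between them, occurred in 5 of the 23 (21.7% against 5.91%), as did the STAT type motif TTCNNNGAA (21.7% against 6.97%). The kappaB windows belonged to Il1rn, Lrg1 and Serpina3n, so that some of these genes were counted with more than 1 window. A match is a string of letters and not a measured binding site.

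Saa1, serum amyloid A1, had signals of 5.69, 6.73 and 6.90 (lowest, median and highest array) in RW-MS and of 7.15, 7.79 and 8.55 in DIO-MS. No obese array overlapped the RW arrays, and DIO-MS-6 and DIO-MS-1 were the highest. The difference was 1.35 ± 0.15 (2.55-fold, n = 8, adjusted p = 1.79e-07), and without those 2 arrays it was 1.15 ± 0.15 (adjusted p = 3.71e-06). The probe set of Saa1 is of a kind that can match more than 1 transcript, so its near-identical copy Saa2 may contribute. Hpx, haemopexin, which binds free haem, had signals of 6.14, 6.43 and 6.74 in RW-MS and 6.95, 7.41 and 8.15 in DIO-MS. Its groups did not overlap either, with a difference of 1.07 ± 0.13 (2.1-fold, adjusted p = 5.58e-07) and of 0.85 ± 0.11 without the 2 arrays (adjusted p = 5.35e-06). Serpina3n, a secreted serine protease inhibitor, lay between 10.98 and 11.42 (median 11.08) in RW-MS and between 11.64 and 12.29 (median 11.90) in DIO-MS. Its difference of 0.79 ± 0.11 (1.73-fold, adjusted p = 1.56e-05) was 0.70 ± 0.12 without the 2 arrays (adjusted p = 5.28e-04). Cp, ceruloplasmin, a copper-binding ferroxidase, lay between 11.44 and 12.03 (median 11.79) in RW-MS and between 12.13 and 12.84 (median 12.44) in DIO-MS. It was 0.67 ± 0.12 higher (1.59-fold, adjusted p = 1.07e-03) with no overlap of the groups.

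Orm2, orosomucoid 2, depended more on the 2 arrays. Its signals were 4.00, 4.33 and 4.78 in RW-MS and 4.51, 5.17 and 7.81 in DIO-MS, with 7.38 in DIO-MS-1, 7.81 in DIO-MS-6 and no more than 5.44 in the other 6 obese arrays, so that most arrays were near the low end of the scale. With all arrays the difference was 1.32 ± 0.26 (2.49-fold, adjusted p = 0.00361, 7 of 8 obese arrays above all RW arrays), and without the 2 it was 0.67 ± 0.11 (adjusted p = 3.42e-04). Timp1, an inhibitor of matrix metalloproteinases, followed the same arrays, at 9.98, 10.29 and 10.71 in RW-MS and 10.59, 10.92 and 12.87 in DIO-MS. Its difference of 1.0 ± 0.20 (adjusted p = 0.00509) was 0.55 ± 0.13 without the 2 arrays (adjusted p = 0.0258), and 6 of 8 obese arrays lay above all RW arrays. In the fit to the 16 mainstream arrays alone Orm2 and Timp1 were not called (adjusted p = 0.175 and 0.144). Il1rn, the interleukin 1 receptor antagonist, was 0.97 ± 0.26 higher (adjusted p = 0.0445), but only DIO-MS-1 (11.67) and DIO-MS-6 (11.80) lay above all RW arrays. Without both it differed by 0.31 ± 0.11 (adjusted p = 0.26), and its call also ended when any 1 of 9 arrays was left out (every RW array but RW-MS-7, and DIO-MS-1 and DIO-MS-6, with differences 0.68 to 1.0).

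Saa3, the serum amyloid A made by macrophages and epithelium, had signals of 11.62, 13.60 and 13.92 in RW-MS and 14.18, 14.31 and 14.71 in DIO-MS. Every obese array lay above every RW array. The difference was 0.98 ± 0.25 (1.97-fold, adjusted p = 0.0364), and it was 0.87 ± 0.28 without DIO-MS-1 and DIO-MS-6 (adjusted p = 0.193). The lowest RW array, RW-MS-5, lay far below the others at 11.62, and without it the difference was 0.73 (adjusted p = 0.111). The call also ended without RW-MS-1, RW-MS-6, RW-MS-8, DIO-MS-1 or DIO-MS-6, with differences up to 1.01. Lcn2, lipocalin 2, which binds bacterial siderophores, was not called: it had a median of 13.71 in RW-MS and 13.84 in DIO-MS, with overlapping groups and a difference of 0.16 ± 0.12 (adjusted p = 0.663).

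**Figure D2:**
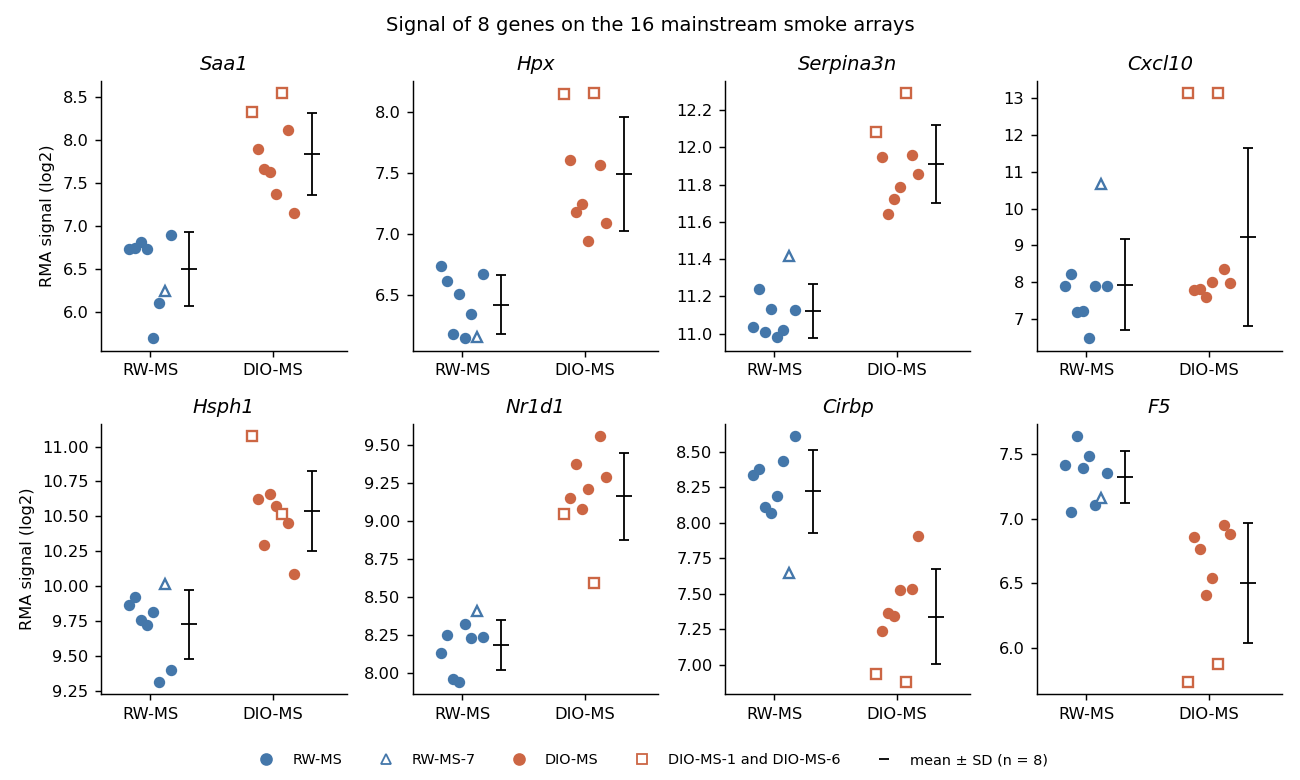
Log2 signal of 8 genes on the 16 mainstream smoke arrays, 1 point per animal, with the mean ± SD of each group (n = 8) beside the points. Obese arrays lie above all RW arrays for Saa1, Hpx, Serpina3n, Hsph1 and Nr1d1 and below them for F5, whereas for Cxcl10 only DIO-MS-1 and DIO-MS-6 (open squares) lie above the RW arrays, with RW-MS-7 (open triangle) next.

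Interferon-induced genes were high on DIO-MS-1, DIO-MS-6 and, to a lesser degree, RW-MS-7. None of the 38 measured genes was called by limma (6 had an unadjusted p below 0.05, all higher), although all 38 had a positive difference with all arrays, with a median of 0.43. Without DIO-MS-1 and DIO-MS-6 the median was -0.18 and 5 of 38 differences were positive, again with 0 called (0 higher and 3 lower at an unadjusted p below 0.05). Against the RW arrays other than RW-MS-7, both DIO-MS-1 and DIO-MS-6 lay above the whole range for 38 of 38 genes, and RW-MS-7 for 36 of 38. The mean deviation over the 38 genes from those 7 arrays was 2.62 in DIO-MS-1, 2.42 in DIO-MS-6 and 1.16 in RW-MS-7, against -0.07 to 0.01 in the other 6 obese arrays. The promoter of Ifit1, which encodes an antiviral protein that binds viral RNA, is shown as an example of the response element of this group (RefSeq, GRCm38.p6, chr19:34640639-34640938, plus strand, with matches in capitals to GAAA, any 2 bases and GAAA again, read on the reverse strand).
Ifit1: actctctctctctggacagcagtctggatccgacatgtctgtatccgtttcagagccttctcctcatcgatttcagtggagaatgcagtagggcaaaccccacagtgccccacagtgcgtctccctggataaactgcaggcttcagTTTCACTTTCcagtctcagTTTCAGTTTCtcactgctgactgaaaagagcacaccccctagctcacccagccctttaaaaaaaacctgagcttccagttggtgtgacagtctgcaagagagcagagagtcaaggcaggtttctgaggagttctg
The 2 matches began 104 and 85 bases before the start of the gene and overlapped no other motif searched. On either strand this motif occurred in 18 of the 35 windows of 28 interferon-induced genes (51.4%), against 3.14% of the windows of genes tested.

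Ifit1 had signals of 13.11 in DIO-MS-1, 13.02 in DIO-MS-6 and 11.24 in RW-MS-7, whereas the other 6 obese arrays lay between 8.94 and 9.35 and the RW arrays had a median of 9.02. Cxcl10, a chemokine that attracts activated T cells, had 13.14, 13.13 and 10.66 on the same 3 arrays and 7.59 to 8.35 on the other 6 obese arrays, with an RW median of 7.89. Mx1, an antiviral GTPase, had 9.51, 9.19 and 7.05, against 4.44 to 4.98 on the other 6 obese arrays and an RW median of 4.82. The same 3 arrays were thus the highest for each of these genes, and they came from both diets. Cxcl10 differed by 1.29 ± 0.60 with all arrays (adjusted p = 0.342) and by -0.01 ± 0.40 without DIO-MS-1 and DIO-MS-6 (adjusted p = 0.999). Mx1 differed by 0.83 ± 0.48 (adjusted p = 0.483) and by -0.35 ± 0.23 without the 2 arrays (adjusted p = 0.72). The genes most like Cxcl10 over the 16 arrays were Ifit1 (Pearson r 0.988), Ccl7 (0.987), Ifit3 (0.984), Gbp6 (0.981) and Cmpk2 (0.98). These correlations are a description over arrays in which the same 3 stand apart.

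Other immune genes were high on the same 2 obese arrays. Relative to the RW-MS mean, the 14 CXC chemokines were 1.64 and 1.86 higher on average in DIO-MS-1 and DIO-MS-6, and -0.11 to 0.10 in the other 6 obese arrays. T cell genes (22 measured) averaged 1.19 and 0.77 in the 2 arrays and NK and cytotoxic genes (17) 1.13 and 0.79, whereas the other 6 lay between -0.11 and 0.10 and between -0.23 and -0.11. Neutrophil genes (22) averaged 0.75 and 0.92 against -0.01 to 0.09. As a share of all genes, 0.613% were called higher and 0.597% lower. Of 14 CXC chemokines 1 was higher (Cxcl16, a membrane-bound chemokine and scavenger receptor, 0.41 ± 0.11, adjusted p = 0.0492) and 1 lower (Cxcl14, made by epithelium, -0.49 ± 0.12, adjusted p = 0.0281). Without the 2 arrays neither was called: Cxcl16 then differed by 0.16 ± 0.07 (adjusted p = 0.459), whereas Cxcl14 kept its size, at -0.53 ± 0.13 (adjusted p = 0.0606). In the mainstream arrays alone Cxcl14 was called with and without the 2 arrays (adjusted p = 0.0365 and 0.0346), and Cxcl16 was not. The 2 calls held in 6 and 9 of the 16 fits that left out 1 array. Of 18 CC chemokines and CX3CL1, 0 were called in limma with all arrays, with 7 higher and 1 lower at an unadjusted p below 0.05. Cxcl1, a neutrophil attractant, differed by 0.83 ± 0.24 (adjusted p = 0.0718), Ccl2 by 0.79 ± 0.28 (0.163), Ccl3 by 0.82 ± 0.30 (0.186) and Cxcl5 by 0.37 ± 0.34 (0.724), and all 4 had adjusted p values of at least 0.482 without the 2 arrays.

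**Figure D3:**
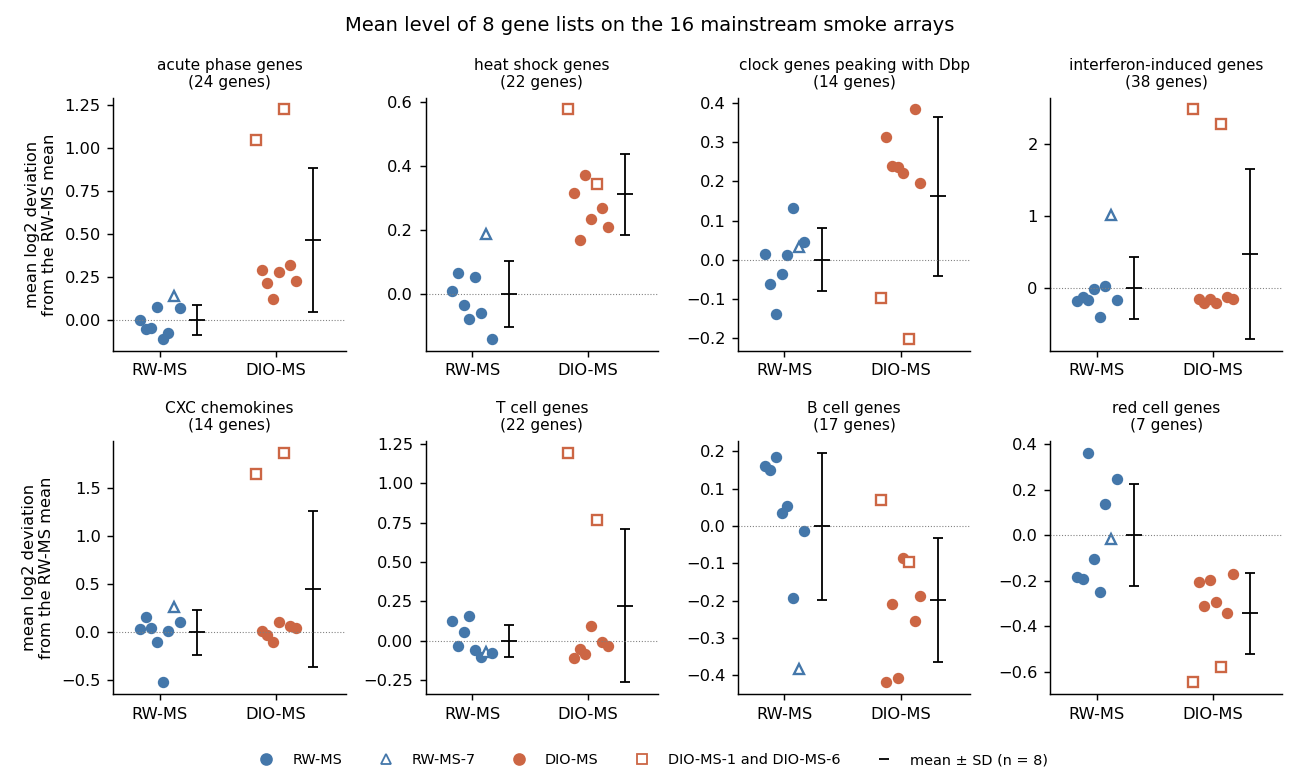
Mean log2 deviation from the RW-MS mean over the genes of 8 lists, for each of the 16 mainstream smoke arrays, with the mean ± SD of each group (n = 8). DIO-MS-1 and DIO-MS-6 (open squares) stand at 1.05 and 1.22 for acute phase genes and at 2.48 and 2.27 for interferon-induced genes, and below the other 6 obese arrays for clock genes peaking with Dbp.

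Single genes of other immune groups were called, and most of these calls rested on the same 2 arrays. Over all genes 0.613% were called higher. Cfb, complement factor B, was 0.88 ± 0.24 higher (adjusted p = 0.0469) and C1ra 0.43 ± 0.10 higher (0.0259), the called members among 18 complement genes. Cd177, a neutrophil surface protein, was 0.90 ± 0.24 higher (0.0453), the called member among 22 neutrophil genes. Cd86, a co-stimulator on antigen-presenting cells, was 0.55 ± 0.13 higher (0.0207), the called member among 20 genes of MHC class II and dendritic cells. Csf1, macrophage colony-stimulating factor, was 0.43 ± 0.11 higher (0.0301), the called member among 23 cytokines and colony-stimulating factors. For Cfb, C1ra and Cd177, DIO-MS-1 and DIO-MS-6 were the only obese arrays above all RW arrays, whereas for Cd86 and Csf1 7 of 8 were. None of these 5 was called without the 2 arrays, where their adjusted p values lay between 0.24 and 0.459. Left out alone, DIO-MS-1 or DIO-MS-6 ended each of the 5 calls. The calls held in 7 of the 16 such fits for Cfb, 6 for Cd177, 11 for C1ra, 12 for Csf1 and 14 for Cd86.

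Single markers of eosinophils, mast cells, B cells and alveolar macrophages were lower in obese lungs, while most genes of those lists were not called. Over all genes 0.597% were called lower. Ccr3, the eotaxin receptor of eosinophils, lay at 4.77, 4.97 and 5.25 in RW-MS and at 4.03, 4.54 and 4.81 in DIO-MS, and 7 of 8 obese arrays were below all RW arrays. It was -0.50 ± 0.09 (adjusted p = 0.00205), and -0.55 ± 0.10 without DIO-MS-1 and DIO-MS-6 (adjusted p = 0.00171). Its signals were near the low end of the scale. Fcer1a, a chain of the high-affinity IgE receptor of mast cells and basophils, was -0.45 ± 0.11 (adjusted p = 0.022) and kept that size without the 2 arrays (-0.44 ± 0.12, adjusted p = 0.0879). Its call also ended without DIO-MS-6, RW-MS-4 or RW-MS-8 alone. It was the called member of 24 genes of eosinophils, mast cells and type 2 immunity, a list without Ccr3 that went both ways, with a median of 0.0035, 12 of 24 differences above 0, and 3 higher and 2 lower at an unadjusted p below 0.05. Cd79b, a signalling chain of the B cell receptor, was -0.49 ± 0.12 (adjusted p = 0.0237) and kept that size without the 2 arrays (-0.49 ± 0.13, adjusted p = 0.0825), the called member of 17 B cell genes, of which 7 were lower and 0 higher at an unadjusted p below 0.05. Chil3, a chitinase-like protein abundant in alveolar macrophages, was -0.37 ± 0.09 (adjusted p = 0.0338) and -0.29 ± 0.10 without the 2 arrays (adjusted p = 0.233). It was the called member of 19 alveolar macrophage genes, whose median was -0.10. The calls of Cd79b and Chil3 each held in 9 of the 16 fits that left out 1 array. Mmp12, the macrophage elastase, differed by 0.40 ± 0.13 (adjusted p = 0.131), and Marco, a scavenger receptor of alveolar macrophages, by -0.33 ± 0.16 (0.38). Of 20 genes of monocytes and recruited macrophages 0 were called in limma, but 15 differences were above 0, with a median of 0.22, and 7 were higher and 0 lower at an unadjusted p below 0.05. DIO-MS-1 and DIO-MS-6 averaged 1.09 and 0.93 over this list, against -0.23 to 0.02 in the other 6 obese arrays, and without them the median was -0.02, with 0 called and 0 higher and 3 lower unadjusted.

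Heat shock genes were higher as a group. Of 22 measured members 11 were higher (0.613% of all genes) and 0 lower, and the median difference was 0.31. The fit to the 16 mainstream arrays alone called 7. Without DIO-MS-1 and DIO-MS-6, 5 were higher (0.29% of all genes) and the median was 0.23, although 17 had an unadjusted p below 0.05 in the higher direction and 1 in the lower. Leaving out 1 array gave 7 to 11 calls, with 7 in 9 of the 16 fits: without any 1 of the RW arrays other than RW-MS-6 and RW-MS-7, or of DIO-MS-1, DIO-MS-2 and DIO-MS-6. Hsph1, an HSP110 nucleotide exchange factor for HSP70, led the genes called in every such fit, and its promoter is shown because it carries an HSF1 type element, here just after the start (RefSeq, GRCm38.p6, chr5:149636287-149636586, minus strand, with the match in capitals to GAA, TTC and GAA, each parted by any 2 bases, read on the reverse strand).
Hsph1: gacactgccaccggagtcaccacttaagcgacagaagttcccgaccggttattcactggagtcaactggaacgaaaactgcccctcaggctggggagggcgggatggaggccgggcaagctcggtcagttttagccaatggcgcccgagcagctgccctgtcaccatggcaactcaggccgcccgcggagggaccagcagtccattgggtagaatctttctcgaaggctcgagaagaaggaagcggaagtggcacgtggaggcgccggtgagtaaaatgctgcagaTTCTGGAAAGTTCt
The match began at base 37 after the start. On either strand this motif occurred in 5 of the 24 windows of 18 heat shock genes (20.8%), against 0.493% of the windows of genes tested, and it overlapped no other motif searched in Hsph1. The 5 windows belonged to Chordc1, Hspd1, Hspe1 and Hsph1.

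Hsph1 had signals of 9.32, 9.79 and 10.01 in RW-MS and of 10.09, 10.55 and 11.07 in DIO-MS. The groups did not overlap, and DIO-MS-1 was the highest array while DIO-MS-6, at 10.52, was inside the range of the others. The difference was 0.81 ± 0.12 (1.75-fold, adjusted p = 7.95e-05) and 0.72 ± 0.13 without the 2 arrays (adjusted p = 0.0011). Stip1, which links HSP70 and HSP90, was 0.44 ± 0.07 higher (adjusted p = 3.11e-04) and Hspa4l, another HSP110 protein, 0.44 ± 0.10 (adjusted p = 0.0158), each with 7 of 8 obese arrays above all RW arrays. A pair of abundant chaperones was named after their values had been seen: Hsp90aa1, the inducible HSP90, was 0.41 ± 0.08 higher (adjusted p = 0.00315, 8 of 8 arrays), and Hspa8, the constitutive HSP70, 0.31 ± 0.05 (adjusted p = 4.24e-04, 6 of 8 arrays). All 5 were also called without the 2 arrays. Hspa1b, an inducible HSP70, was more variable, at 8.79, 9.05 and 10.39 in RW-MS and 9.18, 10.01 and 11.30 in DIO-MS, with overlapping groups. Its difference of 0.88 ± 0.24 was just past the threshold (adjusted p = 0.0498), was 0.62 ± 0.24 without the 2 arrays (adjusted p = 0.353), and held in 4 of the 16 fits that left out 1 array. Its near-identical copy Hspa1a differed by 0.51 ± 0.20 (adjusted p = 0.225). RW-MS-7 was the highest RW array for Hspa1b, Hspa1a (8.38) and Hsph1.

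Cirbp was lower in obese lungs, at 7.65, 8.26 and 8.61 in RW-MS and 6.88, 7.35 and 7.90 in DIO-MS. A single obese array overlapped the RW range, RW-MS-7 was the lowest RW array, and DIO-MS-1 and DIO-MS-6 were the lowest of all. The difference was -0.88 ± 0.12 (1.84-fold lower, adjusted p = 1.12e-05) and -0.74 ± 0.12 without the 2 arrays (adjusted p = 4.28e-04). Some chaperones of the endoplasmic reticulum were slightly higher: of 23 genes of the unfolded protein and integrated stress responses 6 were higher (0.613% of all genes) and 0 lower, with a list median of 0.14. The fit to the 16 mainstream arrays alone called 1 of the 23. Sdf2l1, an HSP40 cofactor of the reticulum, had 7.67, 7.93 and 8.07 in RW-MS and 8.09, 8.26 and 9.10 in DIO-MS, without overlap, and was 0.54 ± 0.11 higher (adjusted p = 0.00566). Creld2 (0.36 ± 0.07, adjusted p = 0.00498), Manf (0.35 ± 0.08, 0.0151) and Hspa5, the chaperone BiP (0.32 ± 0.07, 0.0178), had smaller differences. Among 15 genes of MHC class I presentation the 2 called were Pdia3 (0.30 ± 0.07, 0.0117) and Calr (0.25 ± 0.06, 0.0198), chaperones of the reticulum that were higher (0.613% of all genes). Without DIO-MS-1 and DIO-MS-6 neither was called (0.26 and 0.18, adjusted p = 0.0943 and 0.193). The median of these 15 genes was 0.15 with all arrays and -0.03 without the 2. None of the 23 stress response genes was called without DIO-MS-1 and DIO-MS-6 in limma (7 higher and 1 lower at an unadjusted p below 0.05). The count was 2 without DIO-MS-1 alone and 3 without DIO-MS-6 alone, and those 2 arrays were the highest for Sdf2l1, Creld2, Manf and Hspa5. The fit to the mainstream arrays alone, without those 2, called 2 of the 23, Sdf2l1 among them (adjusted p = 0.0339).

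Clock genes that peak with Dbp differed in the opposite way, since the difference was larger without the 2 arrays. Nr1d1, which encodes the repressor REV-ERB alpha, had signals of 7.95, 8.24 and 8.41 in RW-MS and 8.59, 9.18 and 9.56 in DIO-MS. The groups did not overlap, and DIO-MS-6 and DIO-MS-1 (8.59 and 9.04) were the lowest obese arrays. The difference was 0.97 ± 0.12 (1.97-fold, adjusted p = 5.58e-07) and 1.09 ± 0.12 without the 2 arrays (adjusted p = 1.29e-07). Dbp, a transcription factor of clock output, lay at 9.71, 10.26 and 10.51 in RW-MS and 10.32, 11.15 and 11.40 in DIO-MS, with 5 of 8 obese arrays above all RW arrays. It was 0.74 ± 0.16 higher (1.67-fold, adjusted p = 0.0115) and 0.93 ± 0.16 without the 2 arrays (adjusted p = 7.87e-04), but was not called in the fit to the 16 mainstream arrays alone (adjusted p = 0.0763). Of 14 such genes 2 were higher (0.613% of all genes) and 0 lower, and without the 2 arrays 4 were higher (0.29%). The fit to the 16 mainstream arrays alone called 1. The added genes, named after their values had been seen, were Nr1d2, which encodes REV-ERB beta (0.27 ± 0.08 and 0.40 ± 0.07, adjusted p = 0.0979 and 0.00207), and Tef, a relative of Dbp (0.20 ± 0.08 and 0.37 ± 0.06, adjusted p = 0.29 and 5.31e-04). Averaged over the 14 genes, DIO-MS-1 and DIO-MS-6 stood at -0.10 and -0.20 relative to the RW-MS mean and the other 6 obese arrays at 0.20 to 0.38. The E-box CACGTG, to which the CLOCK and BMAL1 proteins bind, occurred in 4 of the 15 promoter windows of 11 genes of the list (26.7%), against 9.11% of the windows of genes tested. These windows belonged to Bhlhe41, Per1 and Tef, and not to Nr1d1 or Dbp. Of 6 clock genes that peak with Bmal1, in the opposite phase, 0 were called (0 higher and 2 lower at an unadjusted p below 0.05), and Arntl, which encodes BMAL1, differed by -0.40 ± 0.15 (adjusted p = 0.226). 

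The red cell genes that were called were lower. Of 7 measured red cell genes 3 were lower (0.597% of all genes) and 0 higher, with a median of -0.41, and the fit to the 16 mainstream arrays alone called 0 of the 7. Alas2, the first enzyme of haem synthesis in red cells, had 10.73, 10.79 and 11.72 in RW-MS and 9.80, 10.60 and 10.71 in DIO-MS, so that the groups did not overlap. It was -0.57 ± 0.15 (adjusted p = 0.0494), Bpgm, a red cell enzyme of glycolysis, -0.41 ± 0.11 (0.0452), and Fech, which inserts iron into haem, -0.32 ± 0.08 (0.0233). None of the 7 was called without DIO-MS-1 and DIO-MS-6, which had the lowest list averages, -0.65 and -0.58 against -0.34 to -0.17 in the other 6 (3 lower and 0 higher at an unadjusted p below 0.05). The count was also 0 without RW-MS-3, RW-MS-8, DIO-MS-1 or DIO-MS-6 alone. Tfrc, the transferrin receptor through which cells take up iron, was higher, at 10.45, 10.77 and 10.88 in RW-MS and 10.85, 11.13 and 11.26 in DIO-MS. Its difference was 0.36 ± 0.08 (adjusted p = 0.0117, 7 of 8 arrays) and 0.43 ± 0.08 without the 2 arrays (adjusted p = 0.00225). With Hpx and Cp it made up the 3 called members of 16 metallothionein and iron genes, all 3 of them higher (0.613% of all genes).

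Among enzymes that handle foreign compounds the called genes were lower. Of 26 pulmonary xenobiotic enzymes 2 were lower (0.597% of all genes) and 0 higher: Cyp2d22, a cytochrome P450 (-0.56 ± 0.12, adjusted p = 0.0144), and Fmo1, a flavin monooxygenase (-0.40 ± 0.11, adjusted p = 0.0421). Neither was called without DIO-MS-1 and DIO-MS-6 (-0.31 ± 0.09 and -0.18 ± 0.08, adjusted p = 0.164 and 0.425). The call of Cyp2d22 ended without DIO-MS-1 alone (-0.46, adjusted p = 0.0501), and that of Fmo1 in 9 of the 16 fits that left out 1 array. On those 2 arrays the list averaged -0.70 and -0.63, against -0.11 to 0.03 on the other 6. Of 11 targets of the aryl hydrocarbon receptor 0 were called (1 lower and 0 higher at an unadjusted p below 0.05). Cyp1a1, the classic target, had 8.62, 8.87 and 9.20 in RW-MS and 7.10, 8.52 and 9.04 in DIO-MS, with DIO-MS-6 and DIO-MS-1 lowest, and differed by -0.53 ± 0.21 (adjusted p = 0.248). Cyp1b1 differed by 0.26 ± 0.14 (adjusted p = 0.452). Of 34 NRF2 targets and antioxidant enzymes 0 were called in limma (1 higher and 9 lower at an unadjusted p below 0.05), with a median of -0.10. Nqo1 differed by -0.23 ± 0.12 (adjusted p = 0.414) and Gclc, which starts glutathione synthesis, by -0.09 ± 0.13 (0.838).

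Several called genes outside these groups encode matrix, vessel and signalling proteins. Mfap4, a protein of elastic microfibrils, had 11.88, 12.25 and 12.47 in RW-MS and 12.75, 12.87 and 13.44 in DIO-MS. The groups did not overlap, and the difference was 0.78 ± 0.13 (1.72-fold, adjusted p = 2.85e-04) and 0.83 ± 0.14 without DIO-MS-1 and DIO-MS-6 (adjusted p = 5.31e-04). Clmp, an adhesion protein of tight junctions, had 7.55, 7.78 and 7.86 in RW-MS and 8.03, 8.36 and 8.64 in DIO-MS, again without overlap. It was 0.64 ± 0.08 higher (1.55-fold, adjusted p = 3.05e-06) and 0.59 ± 0.09 higher without the 2 arrays (adjusted p = 1.21e-04). Lox, which crosslinks collagen and elastin, was 0.58 ± 0.13 higher (adjusted p = 0.0151), the called member of 32 collagen and fibroblast matrix genes (0.613% of all genes were higher). Sfrp1, a secreted inhibitor of WNT signalling, was 0.77 ± 0.20 higher (0.0345). Neither of the latter was called without the 2 arrays (adjusted p = 0.176 and 0.353), nor was Lox without either of the 2 alone (0.50 and 0.51), while Sfrp1 was called in 10 of the 16 fits that left out 1 array. In the mainstream arrays alone Lox was called without the 2 arrays (adjusted p = 0.0464) but not with them (0.06).

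F5, coagulation factor V, was lower, at 7.05, 7.37 and 7.64 in RW-MS and 5.74, 6.65 and 6.95 in DIO-MS. DIO-MS-1 and DIO-MS-6 were lowest, at 5.74 and 5.87, and the groups did not overlap. The difference was -0.82 ± 0.13 (1.77-fold lower, adjusted p = 2.85e-04) and -0.59 ± 0.12 without the 2 arrays (adjusted p = 0.00405). Abca8a, a lipid transporter, was -0.55 ± 0.11 (adjusted p = 0.00458, 8 of 8 arrays below all RW arrays), and -0.30 ± 0.07 without the 2 (0.0177). Grp, gastrin-releasing peptide, was -0.70 ± 0.14 (adjusted p = 0.00472, 8 of 8 arrays) and -0.54 ± 0.14 without the 2 (0.0694). In the mainstream arrays alone Grp was called with and without the 2 (adjusted p = 0.0199 and 0.0117). Alox15, an arachidonate lipoxygenase of macrophages and eosinophils, was -0.64 ± 0.14 (adjusted p = 0.0156), with 5 of 8 obese arrays below all RW arrays, and it was -0.60 ± 0.15 without the 2 (0.061). Esm1, a proteoglycan of endothelium, was -0.85 ± 0.20 (adjusted p = 0.016) and -0.56 ± 0.18 without the 2 (0.205). The calls of Alox15 and Esm1 ended without DIO-MS-1 alone (-0.57 and -0.70), and that of Esm1 also without DIO-MS-6 (-0.75). Igfbp3, a carrier of insulin-like growth factors, was -0.61 ± 0.15 (0.0252), and Grb14, an inhibitor of the insulin receptor, -0.35 ± 0.08 (0.0192), the 2 called members of 31 genes of insulin, leptin, IGF and adipokine signalling (0.597% of all genes were lower). Klf9, a target of the glucocorticoid receptor, was -0.41 ± 0.10 (0.0228), and Hmgcs1, of cholesterol synthesis, -0.31 ± 0.07 (0.0156). None of these 4 was called without DIO-MS-1 alone or without DIO-MS-1 and DIO-MS-6. In the latter fit Igfbp3 differed by -0.40, Grb14 by -0.21, Klf9 by -0.26 and Hmgcs1 by -0.26, with adjusted p values between 0.112 and 0.276. The calls of Igfbp3, Grb14 and Klf9 also ended without DIO-MS-6 alone, those of Grb14 and Klf9 without RW-MS-8, those of Igfbp3 and Klf9 without RW-MS-1, and that of Igfbp3 without RW-MS-2, RW-MS-5 or RW-MS-6.

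Large differences also occurred in genes that were not called. A further 12 genes passed 2-fold without a call. They were Cxcl10 (1.29), Acod1 (1.26), Orm1 (1.22), Slfn4 (1.14), Cxcl9 (1.08), Cxcl13 (1.04) and Ccl4 (1.0) in the higher direction, and Igha (-1.46), Cyp2e1 (-1.21), Jchain (-1.20), Nppa (-1.10) and Mtm1 (-1.08) in the lower, with adjusted p values from 0.0726 for Mtm1 to 0.729 for Nppa. Without DIO-MS-1 and DIO-MS-6 the 7 in the higher direction lay between -0.33 and 0.49, whereas the 5 in the lower direction kept differences of -0.83 to -1.28. Genes of tissues that can be taken along with lung varied from array to array in both groups. Cardiac muscle genes (20) averaged -1.80 in DIO-MS-1 and -1.22 in RW-MS-5 relative to the RW-MS mean, and lay between -0.58 and 0.49 on the other 14 arrays. White fat genes (16) ran from -0.55 to 0.45 in RW-MS and from -0.90 to 0.01 in DIO-MS. Of these 2 lists 0 genes were called (cardiac 0 in either direction, and fat 2 lower and 0 higher, at an unadjusted p below 0.05). Adipoq, the adipokine adiponectin, differed by -0.67 ± 0.76 (adjusted p = 0.785).

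The filtered air and sidestream groups show which of these differences between the diets were also present in the other exposures. In filtered air 1026 genes (8.28%) differed between the diets, and under sidestream smoke 119 (0.96%). Of the 150 genes called under mainstream smoke 47 were called with the same sign in air and 29 under sidestream smoke. These 3 comparisons share no arrays, but they share 1 estimate of the spread of each gene and so are not independent. Mfap4 was also called in air (0.51 ± 0.13, adjusted p = 0.00882) and under sidestream smoke (1.08 ± 0.13, 6.05e-07). Grp was called lower in both (-0.54 ± 0.14 and -0.81 ± 0.14), as was Cxcl14 (-0.70 ± 0.12 and -0.47 ± 0.12), whereas Clmp was called in neither. Cd79b was lower in air (-1.0 ± 0.12, adjusted p = 7.08e-08), as were 14 of 17 B cell genes (5.99% of all genes). Under sidestream smoke Cd79b was not called. The difference between the diets under mainstream smoke departed from that in air for 110 genes (0.888%), 73 with a higher and 37 with a lower value under smoke. When each array was centred on its median this split became 48 and 58. For 87 of the 110 the difference was larger in air, and 17 of the 110 were called under mainstream smoke itself. The count fell to 57 without RW-MS-1, to 70 without RW-MS-3 and to 69 without DIO-MS-1. Against sidestream smoke, Saa1 was the gene called (0.00807% of those tested), and 624 genes had an unadjusted p below 0.05.

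Acute phase genes had larger differences between the diets under mainstream smoke than in air. Saa1 differed by -0.01 ± 0.15 in air (adjusted p = 0.988) and 0.12 ± 0.15 under sidestream smoke (0.919), so that its difference under mainstream smoke was larger by 1.35 ± 0.21 (adjusted p = 3.87e-04) and 1.23 ± 0.21 (adjusted p = 0.0087). Without DIO-MS-1 and DIO-MS-6 these were 1.15 (adjusted p = 7.77e-04) and 1.03 (0.0648). Of the 24 acute phase genes 6 had a larger difference than in air by the test of the departure (0.589% of all genes). Hpx was larger by 1.09 ± 0.18 (adjusted p = 7.55e-04), Orm2 by 1.42 ± 0.36 (0.041), Cp by 0.75 ± 0.17 (0.0197), Serpina3n by 0.69 ± 0.16 (0.0254) and Saa3 by 1.38 ± 0.36 (0.0459). Of these, Serpina3n and Saa3 were not called without DIO-MS-1 and DIO-MS-6 (adjusted p = 0.0596 and 0.0997), and Cp was not called when DIO-SC-3, DIO-SC-7 and RW-SS-6, which also stand apart from their groups, were left out as well (0.47, adjusted p = 0.107). Of the 24 acute phase genes 0 were higher (2.29% of all genes) and 2 lower (5.99%) in air. Under sidestream smoke the 2 higher genes (0.646% of all genes) were Cp (0.63 ± 0.12, adjusted p = 0.00268) and Serpina3n (0.53 ± 0.11, 0.00929).

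Heat shock genes had larger differences in air. There 19 of the 22 were higher in obese animals (2.29% of all genes), with a median of 0.52, and under sidestream smoke 8 were (0.646% of all genes), with a median of 0.30. For 5 of the 22 the difference under mainstream smoke was lower than in air by the test of the departure (0.299% of all genes), and for 0 it was higher (0.589%). Hspa1b differed by 3.01 ± 0.24 in air, Hspa1a by 2.29 ± 0.20 and Hsph1 by 1.52 ± 0.12, and under mainstream smoke these differences were smaller, with departures of -2.12 ± 0.34 (adjusted p = 3.87e-04), -1.77 ± 0.28 (3.87e-04) and -0.71 ± 0.18 (0.0367). Dnaja1, an HSP40 co-chaperone named after its values had been seen, likewise had a departure of -0.72 ± 0.13 (adjusted p = 0.00143). Cirbp was lower in all 3 exposures, by -1.16 ± 0.12 in air and -0.82 ± 0.12 under sidestream smoke, and its difference did not pass the test of a departure from air (0.28 ± 0.17, adjusted p = 0.487). Nr1d1 differed by 0.08 ± 0.12 in air and 1.08 ± 0.12 under sidestream smoke, and its difference under mainstream smoke was larger than in air by 0.89 ± 0.17 (adjusted p = 0.00339). Dbp was larger than in air by 0.95 ± 0.23 (adjusted p = 0.03), from -0.20 ± 0.16 in air, and stood at 1.11 ± 0.16 under sidestream smoke. Mean signals of Nr1d1 were 10.22 (RW) and 10.30 (DIO) in air, against 8.19 and 9.16 under mainstream smoke. Those of Dbp were 11.59 and 11.39 in air, against 10.18 and 10.93. The means of both genes were thus lower under mainstream smoke than in air in each diet, and less so in obese animals.

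Cyp1a1 also departed from its difference in air. In air it was far lower in obese animals (-4.84 ± 0.21, adjusted p = 2.05e-22), under sidestream smoke it was lower (-1.0 ± 0.21, adjusted p = 0.00929), and under mainstream smoke it was not called, so that the departure was 4.31 ± 0.30 (adjusted p = 2.1e-14). Mean signals of Cyp1a1 were 9.58 (RW) and 4.74 (DIO) in air, and 8.89 (RW) and 8.36 (DIO) under mainstream smoke. The DIO animals in air thus stood far below the others, and RW animals in air were no lower than those under smoke. Zbtb16, a target of the glucocorticoid receptor, was 1.27 ± 0.27 in air and -1.43 ± 0.27 under sidestream smoke, and it differed by -0.31 ± 0.27 under mainstream smoke (adjusted p = 0.693), a departure from air of -1.59 ± 0.38 (adjusted p = 0.0292). Among smooth muscle genes, Actg2 and Cnn1 departed from air by -1.04 ± 0.25 (adjusted p = 0.0331) and -0.98 ± 0.25 (0.041), and by -0.86 and -0.78 without DIO-MS-1 and DIO-MS-6, where neither passed (0.0822 and 0.108). Without all 5 arrays of the series that stand apart Actg2 passed (-0.81, adjusted p = 0.0255) and Cnn1 did not (-0.85, 0.0805). H2-Ab1, an MHC class II chain, and Fcer2a, the low-affinity IgE receptor of B cells, departed by 0.53 ± 0.11 (adjusted p = 0.0134) and 1.08 ± 0.21 (0.00704), from differences of -0.33 ± 0.08 and -1.0 ± 0.15 in air. Arrays DIO-SC-3 and DIO-SC-7 of the air group also stand apart, and without the 5 such arrays of the series 131 genes departed from air, of which 60 were among the 110.

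**Figure D4:**
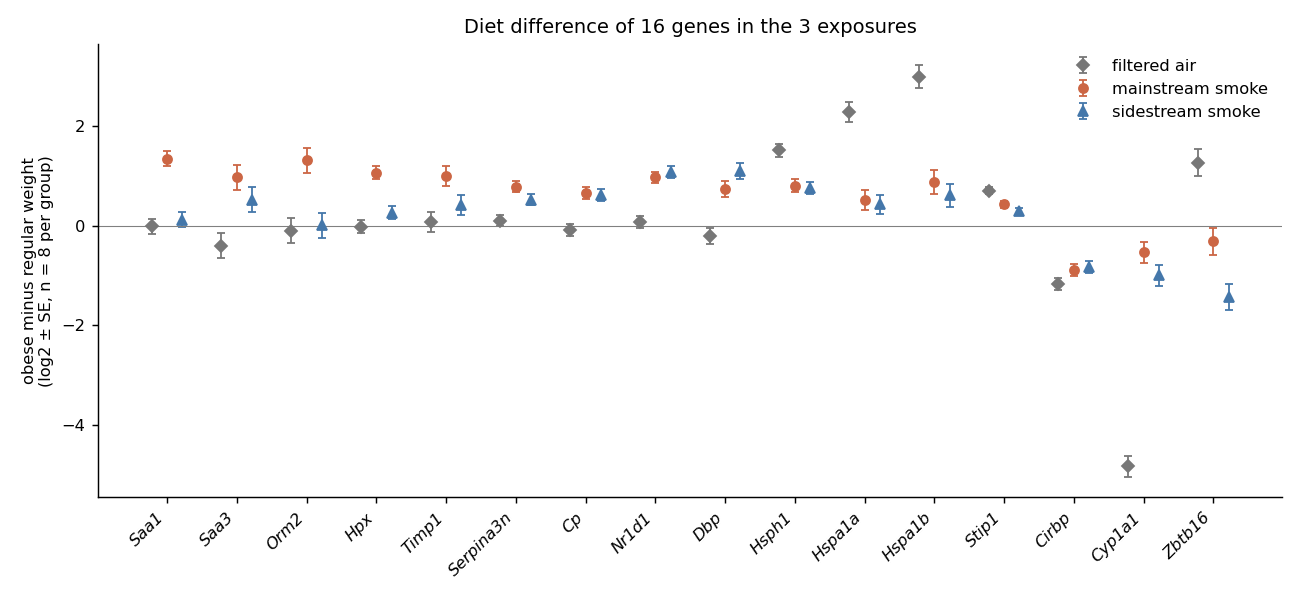
Difference between the diets (obese minus regular weight, log2 ± SE, n = 8 per group) of 16 genes in filtered air, mainstream smoke and sidestream smoke. Acute phase genes from Saa1 to Cp lie near or below 0 in air and above 0 under mainstream smoke, Hspa1a and Hspa1b lie highest in air, and Cyp1a1 lies at -4.84 in air and -0.53 under mainstream smoke.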

How the data were processed

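RNA of whole lung was measured on 48 Affymetrix arrays, 8 for each of 6 groups of diet and exposure. The deposited values are log2 signals per probe set, made by the authors with RMA (background correction, quantile normalisation and probe summary) per the submitters' processing notes. The version is not given in the sources used here, nor is whether all arrays were normalised together. RMA shrinks differences of dim probe sets, and its quantile step gives all arrays a similar distribution.

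Of 22690 probe sets, 20380 that match 1 gene symbol were used, and 64 control probe sets, 691 with several symbols and 1555 without a symbol were left out. For the 4956 genes with several probe sets the one with the highest mean over all arrays was kept, which gave 12393 genes. A limma model (version 3.58.1, in R 4.3.3) with a mean for each of the 6 groups was fitted to all 48 arrays, and differences and interactions were tested two-sided with Benjamini-Hochberg adjustment over all 12393 genes at 0.05. Because the groups share one estimate of the spread, a fit to the 16 mainstream arrays alone is also given. The script was tested on simulated data. The array number, 8 per group, sets the precision. The p-values measure the spread between animals.

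Genes were named by rule: the 15 highest and 15 lowest called differences, with and without DIO-MS-1 and DIO-MS-6, up to 4 called members of each of 49 gene lists (or the largest uncalled one), the 6 highest and lowest interactions, and a fixed set of genes. The text describes a part of these. It also names lung markers, the genes most like Cxcl10, list genes with a promoter motif, and all uncalled genes past 2-fold, which were taken by their values. Other genes outside the rule are marked as chosen after their values were seen. The genes and lists were chosen with earlier results of these data known. Lists are described by counts and medians with no test. Alternatives were other array sets, each array left out, the replicate number as a block, median centring, repeated quantile normalisation, a filter on the lowest 25% of genes, the mean of probe sets, a trended robust fit and array weights. Promoter windows and gene names came from RefSeq on GRCm38.p6.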

Additional observations from a re-analysis of the deposited data

Results flagged for a closer look

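For 17 of 166 groups of 8 arrays tested over 83 genes, a single array lay far from the other 7 by Dixon's criterion at the 95% level. In 11 of the 17 that array was RW-MS-7. The genes were chosen with earlier results of these data known, and many vary together, so this count cannot be set against chance. RW-MS-7 was the highest regular weight array for Cxcl10 (10.66), Ifit1 (11.24), Mx1 (7.05), Cd177 (8.61), C1ra (10.6), Hspa1b (10.39), Hspa1a (8.38), Dnaja1 (11.93) and Fkbp5 (9.35), and the lowest for Cyp2d22 (8.58) and Nqo1 (6.86). RW-MS-5 was the lowest for Saa3 (11.62), Csf1 (9.29) and Mmp12 (9.38), and RW-MS-1 the highest for Ucp1 (5.42). Among obese arrays DIO-MS-1 was the lowest for Actg2 (7.52) and DIO-MS-8 the highest for Fcer1a (4.54). DIO-MS-1 and DIO-MS-6 lie together, so that for the interferon-induced genes neither stood alone in its group.

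The difference between the diets itself differed between exposures, by an interaction term in limma, for 21 comparisons of the genes described. Against filtered air it was higher under mainstream smoke for Saa1 (1.35), Saa3 (1.38), Orm2 (1.42), Hpx (1.09), Serpina3n (0.69), Cp (0.75), Nr1d1 (0.89), Dbp (0.95), Cyp1a1 (4.31), H2-Ab1 (0.53), Fcer2a (1.08), Cd86 (0.71) and Mmp12 (0.71), with an adjusted p of 0.0464 for Cd86 and 0.0483 for Mmp12. It was lower for Hsph1 (-0.71), Hspa1b (-2.12), Hspa1a (-1.77), Dnaja1 (-0.72), Zbtb16 (-1.59), Actg2 (-1.04) and Cnn1 (-0.98). Against sidestream smoke it was higher for Saa1 (1.23). Cd86 passed neither this test (0.49, adjusted p = 0.128) nor that of the difference itself (adjusted p = 0.24) without DIO-MS-1 and DIO-MS-6, whereas Mmp12 passed this test (0.75, adjusted p = 0.0486). Without all 5 arrays that stand apart, Cd86 passed this test (0.56, adjusted p = 0.0282) and Mmp12 did not (0.57, adjusted p = 0.105).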

How the results depend on the processing

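Under mainstream smoke 150 genes differed between the diets, 110 genes departed from the difference in air and 1 from that under sidestream smoke. In that order, the counts were 51, 107 and 0 (369 at an unadjusted p below 0.05 in limma) without DIO-MS-1 and DIO-MS-6, and 160, 131 and 3 without all 5 arrays that stand apart. They were 155, 137 and 0 (529 unadjusted) without the lowest 25% of genes, 163, 118 and 2 with the mean of probe sets, and 268, 104 and 11 with array weights. The first count was 47 with the 16 mainstream arrays alone. Further alternatives chosen after seeing the data gave 89 with the mainstream arrays less DIO-MS-1 and DIO-MS-6, and 61, 75 and 0 (363 unadjusted) without these 2 and RW-MS-7. Leaving out 1 array gave 62 to 219, 57 to 148 and 1 to 2. Median centring (166, 106 and 1), repeated quantile normalisation (184, 132 and 1) and the trended robust fit (142, 111 and 1) stayed within 1.5 times. The cause of these changes was not tested, beyond the smaller number of arrays or genes where some were left out. With the replicate number as a block the counts were 125, 98 and 1. Same-numbered mainstream arrays did not deviate together (correlations -0.36 to 0.20), but whole-array correlations cannot show whether the numbers pair the animals in some other way. The alternatives were followed for 83 genes, which leave out Pdia3 and Calr among others, and no called gene of the 83 reversed. Over these genes 162 of the tests with 1 array left out lost a call and 6 gained one, with 1160 on the same side of the threshold. The other alternatives lost 169 and gained 13, with 807 on the same side. RMA values carry no background signal per probe, so dim genes such as Orm2, Mx1, Fcer1a and Ccr3, and their folds, are least certain.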

Other observations

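Cell division genes and epithelial genes were not described above. Of 39 cell division genes 0 were called in limma under mainstream smoke (1 higher and 0 lower at an unadjusted p below 0.05), although 38 of the 39 differences were above 0, with a median of 0.30 against -0.01 for all genes and of 0.14 without DIO-MS-1 and DIO-MS-6. Their average ran from -0.27 to 0.72 in RW-MS and from -0.10 to 0.40 in the 6 other obese arrays, and stood at 0.83 in DIO-MS-1 and 0.59 in DIO-MS-6. Of 20 alveolar type 2 and surfactant genes 0 were called (1 higher and 0 lower unadjusted), with a median of -0.01, whereas 7 were lower in obese animals in filtered air (5.99% of all genes). Of 14 alveolar type 1 genes 0 were called (1 higher and 0 lower unadjusted), and DIO-MS-1 and DIO-MS-6 had averages of -0.29 and -0.24 against 0.07 to 0.24 in the other 6 obese arrays. Endothelial genes (28 measured, 0 called, 1 higher and 2 lower unadjusted) likewise averaged -0.43 and -0.38 on these 2 arrays, against -0.05 to 0.15 on the other 6.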
